A study of Homo sapiens with 6 samples.

Results

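SnoRNA host genes are transcribed units whose introns carry small nucleolar RNAs. The 10 noncoding host genes SNHG1, SNHG5, SNHG6, SNHG7, SNHG8, SNHG12, SNHG15, SNHG16, GAS5 and ZFAS1 were followed in BT-549 cells, an established triple-negative breast cancer line, after silencing of the NEAT1 long noncoding RNA. Members were taken by symbol from a list that was drawn up with earlier results of these data known. All 10 were among the 25545 genes of the expression table, and all 10 passed the filter of a mean of at least 1 TPM that left 10721 genes for testing. TPM, a relative measure of transcript number, divides the reads of a gene by its length and scales each library to the same sum.

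The samples are 3 libraries of cells transfected with a control siRNA (titled BT-549/tet-NEAT1CsiRNA, here CsiRNA) and 3 libraries of cells transfected with an siRNA against NEAT1 (titled BT-549/tet-NEAT1siRNA, here NEAT1siRNA). Both groups were cultured and transfected alike, and RNA was taken 48 h after transfection. A single NEAT1 siRNA in a single cell line was sequenced, and the sources do not say whether the triplicate cultures were transfected independently, so p-values measure the spread between these libraries, which may be technical. The word tet stands in the titles of both groups, and the labels describe no inducible construct in these cells.

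In a host gene, the spliced exons become a long noncoding RNA while the excised introns are trimmed to mature snoRNAs. Box C/D snoRNAs guide ribose methylation and box H/ACA snoRNAs guide pseudouridylation of ribosomal and spliceosomal RNAs, each bound by its own set of core proteins. Many noncoding hosts begin with a 5′ terminal oligopyrimidine tract, as ribosomal protein mRNAs do. Their spliced RNAs carry short open reading frames and are often degraded by nonsense-mediated decay when they are translated. Several are MYC-responsive and are commonly abundant in growing tumour cells.

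The RefSeq annotation places 36 snoRNAs inside the spans of these genes, 28 of box C/D and 8 of box H/ACA, and 34 of them lie within an intron of the host's canonical transcript in GENCODE release 44. SNORA9 of SNHG15 lies in an exon of the canonical transcript instead. GAS5 holds 11 snoRNAs in a gene of 12 exons, and SNHG1 holds 8 in a gene of 11 exons. SNHG1, SNHG5, SNHG6, SNHG16 and ZFAS1 carry box C/D snoRNAs alone, whereas SNHG7, SNHG8 and SNHG15 carry box H/ACA snoRNAs alone. SNHG12 carries 1 box C/D and 3 box H/ACA snoRNAs, and GAS5 carries 10 box C/D snoRNAs plus SNORA103, which overlaps an exon in part.

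On GRCh38 these lncRNA genes lie on different chromosomes, apart from a pair on chromosome 1. SNHG12 (ENSG00000197989.15) lies at chr1:28578538-28583132 and GAS5 (ENSG00000234741.10) at chr1:173858559-173868882, both on the minus strand. Also on the minus strand are SNHG1 (ENSG00000255717.9, chr11:62851978-62855953), SNHG5 (ENSG00000203875.13, chr6:85650491-85678932), SNHG7 (ENSG00000233016.9, chr9:136721366-136728184) and SNHG15 (ENSG00000232956.10, chr7:44983019-44986961). SNHG8 (ENSG00000269893.10, chr4:118278703-118285316), SNHG16 (ENSG00000163597.17, chr17:76557727-76670985) and ZFAS1 (ENSG00000177410.13, chr20:49278178-49299600) are on the plus strand.

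The starts of these genes are shown because the hosts belong to a class known for pyrimidine-rich first bases. RefSeq promoter sequence (GRCh38.p14) was available for 8 of the 10 genes. Each line runs 5′ to 3′ on the gene's strand, from 50 bases before the annotated start to 40 bases from it onward. Capitals mark the first 5 transcribed bases and, where one was found from 45 to 11 bases before the start, the letters TATAA.
SNHG12 (chr1:28581834-28581923, minus): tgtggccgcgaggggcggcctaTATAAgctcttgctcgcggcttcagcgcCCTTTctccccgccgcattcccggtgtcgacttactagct
SNHG5 (chr6:85678694-85678783, minus): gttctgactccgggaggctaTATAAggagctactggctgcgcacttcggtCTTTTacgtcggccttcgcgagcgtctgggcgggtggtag
ZFAS1 (chr20:49278592-49278681, plus): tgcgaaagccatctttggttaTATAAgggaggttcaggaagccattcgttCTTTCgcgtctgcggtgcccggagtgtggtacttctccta
SNHG7 (chr9:136728145-136728234, minus): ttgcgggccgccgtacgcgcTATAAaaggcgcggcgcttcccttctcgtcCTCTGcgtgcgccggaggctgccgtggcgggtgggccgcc
SNHG8 (chr4:118278712-118278801, plus): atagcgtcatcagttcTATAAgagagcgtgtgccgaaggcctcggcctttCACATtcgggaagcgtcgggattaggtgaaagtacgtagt
SNHG1 (chr11:62855846-62855935, minus): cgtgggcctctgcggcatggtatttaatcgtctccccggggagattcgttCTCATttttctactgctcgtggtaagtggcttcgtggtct
SNHG16 (chr17:76557714-76557803, plus): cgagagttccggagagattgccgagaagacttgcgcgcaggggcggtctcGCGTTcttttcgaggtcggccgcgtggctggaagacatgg
GAS5 (chr1:173869006-173869095, minus): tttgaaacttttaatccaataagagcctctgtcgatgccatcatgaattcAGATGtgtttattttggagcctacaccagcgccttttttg

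A C followed by 3 further pyrimidines stood at the annotated start of 4 of the 8 (SNHG5, SNHG7, SNHG12 and ZFAS1), a feature of 5.45% of the 35093 RefSeq promoters. TATAA lay in the window from 45 to 11 bases before the start in 5 of the 8, those same 4 and SNHG8, and in 4.25% of all promoters. Both features together were found in 4 of the 8 and in 0.140% of all promoters. The longer TATATAA, which contains TATAA, was found in 3 of the 8 and in 0.635% of all. These letters were read on the gene's strand. CACGTG, a palindrome and the canonical E-box, was found in 1 of the 8 (SNHG7) and in 7.26% of promoters within the whole 300-base sequences. The RefSeq start of GAS5 lies outside its GENCODE span, so its line shows 1 of several annotated starts. Of the 5 genes with TATAA, SNHG12 and SNHG8 were lower after NEAT1 silencing by the test given with the expression values, and SNHG5, SNHG7 and ZFAS1 did not pass it. Of the genes shown without TATAA, SNHG1 and GAS5 were lower by that test and SNHG16 did not pass it.

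NEAT1 itself was 10.6 ± 2.86 TPM (SD, n = 3) in CsiRNA and 3.35 ± 0.885 TPM (SD, n = 3) in NEAT1siRNA libraries, or 31.5% of the control mean, with no overlap between the libraries of the groups. Libraries held between 15786929 and 20342845 reads, as recovered from the deposited tables. The mesenchymal markers VIM, FN1, CDH2, ZEB1 and CD44 were all present, with VIM at 1046 TPM in CsiRNA. Of 5 luminal or basal epithelial markers, ESR1 was listed at 0, PGR, GATA3 and KRT5 were under 0.2 TPM in both group means, and ERBB2 was at 6.19 TPM in CsiRNA and 5.98 TPM in NEAT1siRNA. Of markers of other cell types, PTPRC, CD3E, PECAM1, VWF and ALB had group means of at most 0.04 TPM, and CD68 had 26.3 TPM in CsiRNA and 23.7 in NEAT1siRNA. The 4 short RNAs RN7SK, RN7SL1, RN7SL2 and RPPH1 took 64.4% to 67.7% of the TPM in CsiRNA and 64.9% to 68.1% in NEAT1siRNA libraries.

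Noncoding host genes were lower after NEAT1 silencing in 5 of 10 cases, and none was higher past the threshold (limma's moderated test on log2(TPM + 1), Benjamini-Hochberg adjusted p under 0.05 over all genes tested). Those that fell were SNHG15, SNHG12, SNHG8, GAS5 and SNHG1, by 0.30 to 0.65 on the log2 scale. In bulk RNA, a lower level in every cell and a loss in some of the cells cannot be told apart. Over all genes tested, 8.98% were lower and 14% were changed in either direction. The same 5 genes, and no other of the 10, had all 3 NEAT1siRNA values below the range of the 3 CsiRNA values, which held for 19.3% of all genes tested. The log2 fold change was negative in 9 of the 10 and its median was -0.27, beside a median of -0.04 over all genes. At an unadjusted p under 0.05, 0 of the 10 were higher and 6 were lower. Of the 5 mesenchymal markers, 3 were lower as well (FN1 by 0.47, CDH2 by 0.34 and CD44 by 0.31 on the log2 scale, with a median of -0.31 over the 5), and their part in the result was not tested.

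**Figure D1:**
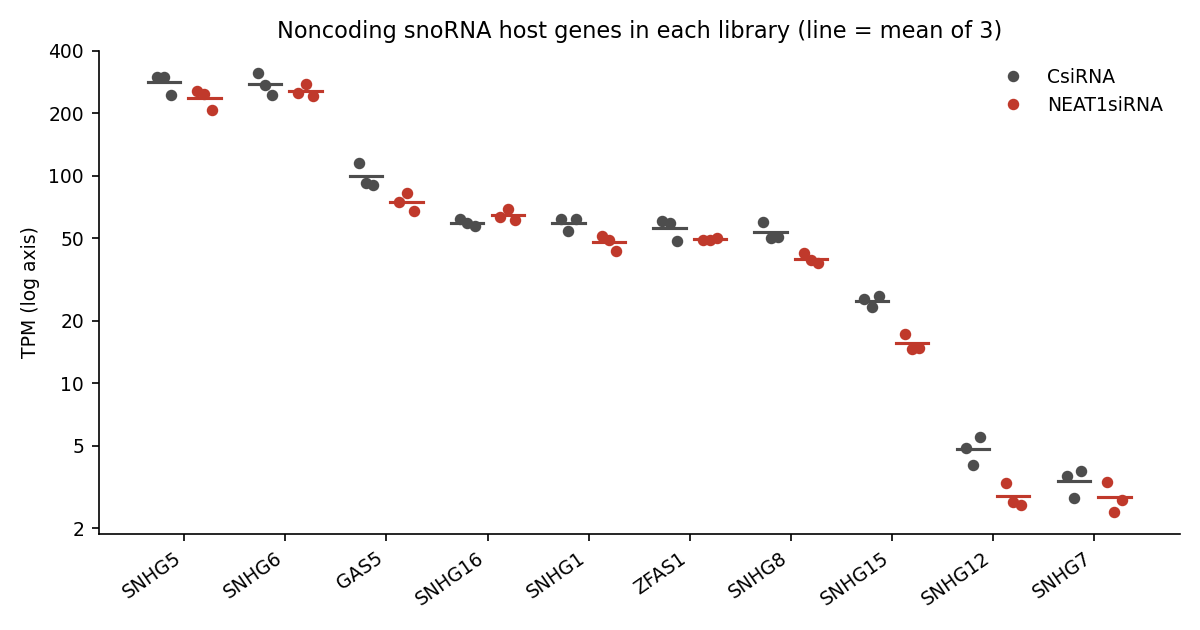
TPM (log axis) of the 10 noncoding snoRNA host genes in each of the 3 CsiRNA (grey) and 3 NEAT1siRNA (red) libraries, ordered by the CsiRNA mean; points are libraries and lines are means. SNHG5 and SNHG6 average 282 and 278 TPM in CsiRNA cells, and the red points of SNHG15, SNHG12, SNHG8, GAS5 and SNHG1 lie wholly below the grey ones.

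SNHG15, the host of SNORA9, had the lowest p-value of the 10. It measured 25.3, 23.2 and 26.2 TPM in the control libraries (in order of replicate number), against 17.2, 14.7 and 14.8 TPM in the silenced ones. The groups did not overlap, and the highest NEAT1siRNA library stood well under the lowest control. Silencing left 62.5% of the control mean, a log2 difference of -0.65 with a standard error of 0.09 (limma, adjusted p = 4.13e-05). Only 81 of the 10721 genes tested had a lower fold change. SNHG15 was the one gene of the 10 that was lower in every one of 17 alternative fits, with a log2 fold change between -0.72 and -0.58.

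SNHG12, which carries SNORA16A, SNORA44, SNORA61 and SNORD99 in its introns, fell to a like extent at a much lower level. Control libraries 1 to 3 held 4.86, 4.05 and 5.49 TPM, and silenced libraries 1 to 3 held 3.30, 2.68 and 2.58 TPM. All NEAT1siRNA libraries were below all controls, and the 3 controls were spread more widely than the 3 silenced libraries. SNHG12 fell by 0.59 on the log2 scale with a standard error of 0.11 (limma, adjusted p = 0.000446), the mean being 59.4% of control. Between 103 and 269 reads per library stood behind these values. On the log2(TPM + 1) scale the change of such a low gene is understated.

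SNHG8, the host of SNORA24, had 59.9, 50.2 and 50.7 TPM in the CsiRNA and 42.3, 39.4 and 37.9 TPM in the NEAT1siRNA libraries, in order of replicate number. CsiRNA replicate 1 was the highest, and no silenced library reached the lowest control. SNHG8 fell by 0.41 on that scale (SE 0.09; limma, adjusted p = 0.00378), to 74.4% of the control mean. Without CsiRNA replicate 1 the adjusted p was 0.0532 and the log2 fold change -0.33.

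GAS5, named for its accumulation in growth-arrested cells and known to bind the glucocorticoid receptor, was the third most abundant of the hosts. Its level was 115, 92.7 and 90.0 TPM in control and 74.6, 82.9 and 67.5 TPM in silenced libraries 1 to 3. CsiRNA replicate 1 again stood above the other controls, while NEAT1siRNA replicate 3 was the lowest library. GAS5 fell by 0.40 (log2, SE 0.10; limma, adjusted p = 0.00922), to a mean of 75.6% of control. The adjusted p became 0.122 without CsiRNA replicate 1 and 0.0860 without NEAT1siRNA replicate 3, with log2 fold changes of -0.29 and -0.32.

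SNHG1, which carries SNORD22 and SNORD25 to SNORD31, had 62.1, 54.1 and 61.6 TPM in control against 51.2, 48.9 and 43.6 TPM in silenced libraries 1 to 3. CsiRNA replicate 2 and NEAT1siRNA replicate 1 were the closest libraries of the groups, and they did not overlap. At a log2 difference of -0.30 (SE 0.09; limma, adjusted p = 0.0308), SNHG1 was the nearest of the 5 to the threshold. Its adjusted p was 0.154 without CsiRNA replicate 1, 0.0640 without CsiRNA replicate 3 and 0.192 without NEAT1siRNA replicate 3.

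The other 5 hosts did not pass the threshold. SNHG5, which carries SNORD50A and SNORD50B, had 301, 300.3 and 245 TPM in control against 256, 248 and 208 TPM in silenced libraries 1 to 3. CsiRNA replicate 3 fell among the silenced libraries, and the log2 fold change was -0.25 (adjusted p = 0.0884 from limma). SNHG5 passed the test when CsiRNA replicate 3 (adjusted p = 0.00367), NEAT1siRNA replicate 1 (0.0365) or NEAT1siRNA replicate 2 (0.0120) was left out.

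SNHG7, the host of SNORA17A and SNORA17B and the least abundant in control cells, had 3.55, 2.80 and 3.78 TPM in CsiRNA and 3.34, 2.39 and 2.74 TPM in NEAT1siRNA. Its groups overlapped, with a log2 fold change of -0.20 (adjusted p = 0.253). ZFAS1, transcribed from the start region of ZNFX1 and carrying SNORD12, SNORD12B and SNORD12C, had 60.4, 59.0 and 48.4 TPM in CsiRNA and 49.0, 49.1 and 50.3 TPM in NEAT1siRNA. The silenced libraries of ZFAS1 were nearly equal and CsiRNA replicate 3 lay just under them, so that its log2 fold change was -0.17 (adjusted p = 0.264).

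SNHG6 (ENSG00000245910.9, at chr8:66920561-66926398 on the minus strand), the host of SNORD87, had 314, 273 and 246 TPM in CsiRNA and 252, 277 and 243 TPM in NEAT1siRNA, and its groups overlapped. The log2 fold change of SNHG6 was -0.10 (adjusted p = 0.507). SNHG16, which carries SNORD1A, SNORD1B and SNORD1C, stood on the other side of 0, with 61.7, 59.5 and 57.2 TPM in CsiRNA and 63.3, 68.8 and 61.1 TPM in NEAT1siRNA. NEAT1siRNA replicate 3 lay within the control range of SNHG16 and the other two lay above it. Its log2 difference was 0.11 (SE 0.09, adjusted p = 0.444), and SNHG16 had the most reads of the 10, with a mean of 3239 per library. With each library centred on its median SNHG16 passed the test as higher, by 0.17 on the log2 scale (limma, adjusted p = 0.0477).

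**Figure D2:**
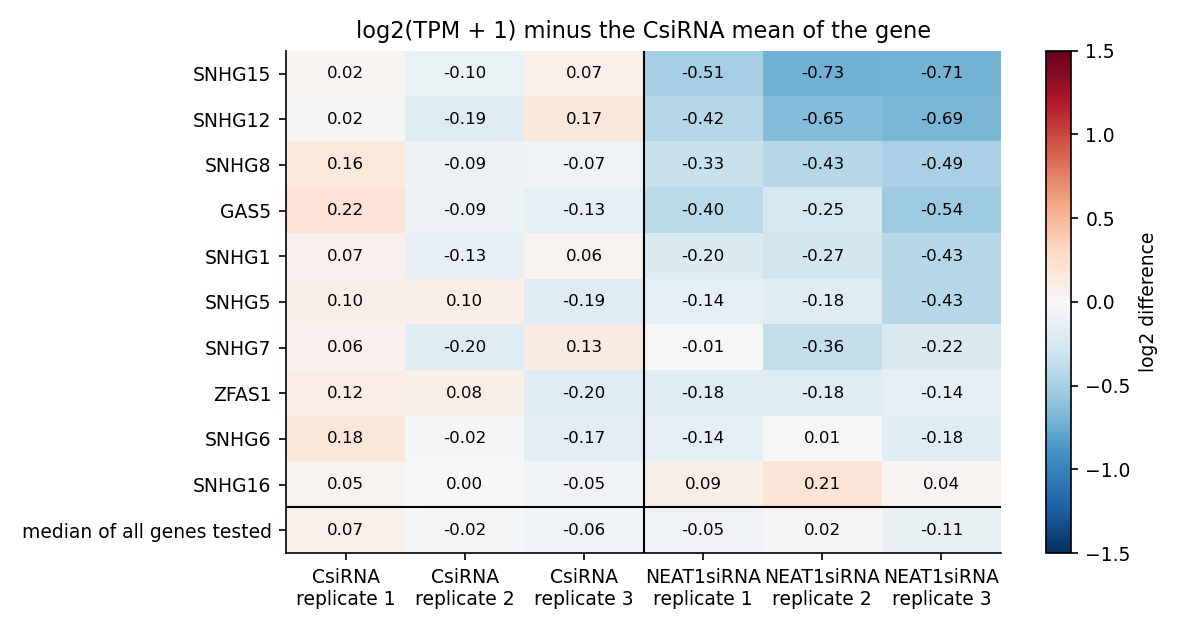
Difference of log2(TPM + 1) from the CsiRNA mean of each gene (colour and printed value) for the 10 host genes in the 6 libraries, with the median of all genes tested in the bottom row. SNHG15 lies between -0.73 and -0.51 in the NEAT1siRNA libraries, SNHG16 between 0.04 and 0.21, and the all-gene median between -0.11 and 0.02.

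By library, the median of the 10 genes relative to their CsiRNA means was 0.08, -0.09 and -0.06 in CsiRNA replicates 1 to 3 and -0.19, -0.26 and -0.43 in NEAT1siRNA replicates 1 to 3. The median of all genes tested was 0.07, -0.02 and -0.06 in the controls and -0.05, 0.02 and -0.11 in the silenced libraries. CsiRNA replicate 1 was thus the highest and NEAT1siRNA replicate 3 the lowest on both measures. These are the libraries without which fewer of the 10 genes were called lower. The number was 2 without CsiRNA replicate 1 (SNHG15 and SNHG12) and 3 without NEAT1siRNA replicate 3 (these and SNHG8). Of all genes, 383 and 425 were lower in these fits, against 963 with all libraries. All 10 hosts kept the sign of their fold change in every alternative fit.

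Scaling changed the split of all genes, more in the number called higher than in the number called lower. As deposited, 535 genes were higher and 963 lower, while quantile normalization gave 1082 and 1109, centring on the median 1158 and 954, and TPM recomputed without the 4 short RNAs 918 and 1174. Under each of these 3 scalings the hosts called lower numbered 5. The median log2 fold change of the hosts was -0.24, -0.22 and -0.24 in turn, beside -0.27 as deposited. That of all genes was -0.002, 0.01 and -0.02, beside -0.04 as deposited, so both medians moved up. Transcript GC content of the 10 genes ran from 42.2% (SNHG6) to 55.3% (SNHG7). Expression relative to the group mean moved with GC content in opposite directions in NEAT1siRNA replicates 1 and 2 (Spearman rho of 0.63 and -0.70 across 10423 genes, which are not independent). Deviations from a group mean cancel out within the group, so opposite directions are in part built in and do not show which library departs. With a trend on GC content and length removed, 5 of the 10 were again lower and SNHG16 was higher (log2 fold change of 0.17, adjusted p = 0.00896 from limma). In that fit 1574 of the 10423 genes were higher and 1648 lower, against the 535 and 963 called as deposited.

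**Figure D3:**
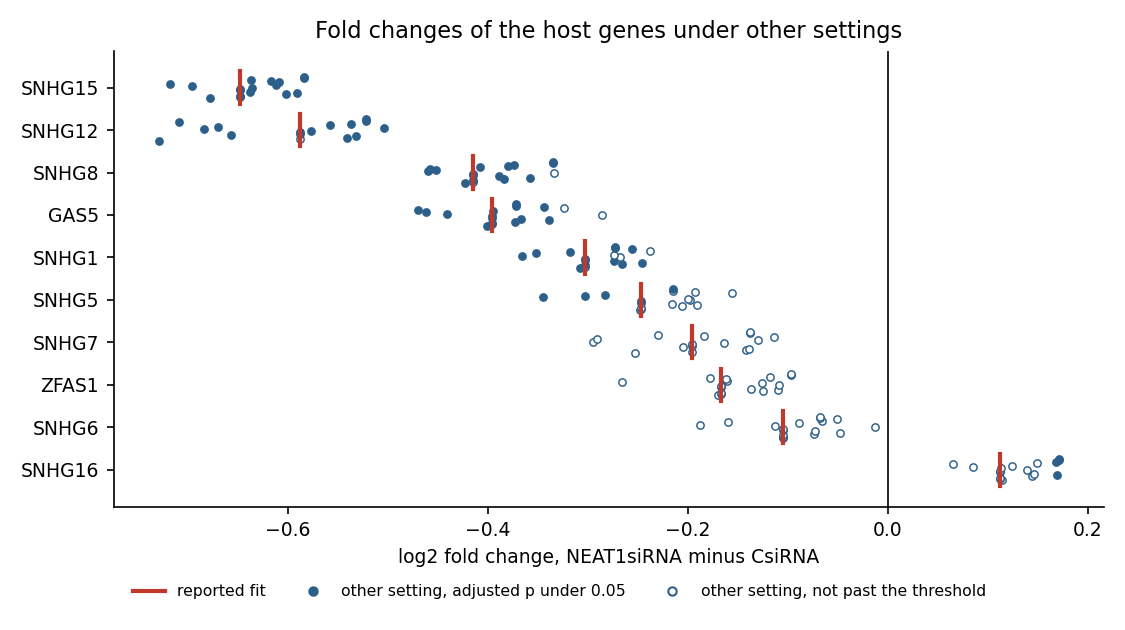
Log2 fold change (NEAT1siRNA minus CsiRNA) of the 10 host genes in the reported fit (red line) and in the alternative fits (points, filled where the adjusted p was under 0.05). SNHG15 is filled throughout, from -0.72 to -0.58, and no gene crosses 0.

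In CsiRNA cells the order of levels began with SNHG5 (282 ± 31.9 TPM, SD, n = 3) and SNHG6 (278 ± 34.2), whose ranges overlapped. GAS5 followed at 99.3 ± 13.8 TPM, apart from its neighbours on both sides. SNHG16 (59.4 ± 2.26), SNHG1 (59.3 ± 4.46), ZFAS1 (55.9 ± 6.56) and SNHG8 (53.6 ± 5.47) then overlapped each with the next. SNHG15 (24.9 ± 1.53), SNHG12 (4.80 ± 0.722) and SNHG7 (3.38 ± 0.513) closed the order, each apart from the one before.

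In NEAT1siRNA cells SNHG6 (257 ± 17.8 TPM) came before SNHG5 (238 ± 25.5), again with overlapping ranges. GAS5 (75.0 ± 7.72) now overlapped with SNHG16 (64.4 ± 3.95), which stood apart from ZFAS1 (49.5 ± 0.686) and SNHG1 (47.9 ± 3.91) below it. SNHG8 (39.9 ± 2.27) and SNHG15 (15.6 ± 1.42) followed, each apart from its neighbours. SNHG12 (2.85 ± 0.391) and SNHG7 (2.82 ± 0.479) were no longer separable. Such an order rests on the gene lengths that the authors used, which the sources do not give. In CsiRNA replicate 1, 1 TPM corresponded to 3.98 reads for SNHG6, 4.73 for SNHG5, 48.5 for SNHG16 and 51.5 for SNHG7, so that SNHG16 had more reads than SNHG5 at a lower TPM. Ratios of TPM between the groups do not depend on that length.

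Together the 10 hosts summed to 1008, 919 and 835 TPM in control against 812, 835 and 732 TPM in silenced libraries 1 to 3. The control replicate 3 and NEAT1siRNA replicate 2 were nearly equal in this sum. As a share of the TPM outside the 4 short RNAs, the groups did not overlap. That share was 0.283%, 0.267% and 0.258% in control against 0.245%, 0.238% and 0.229% in silenced libraries 1 to 3. SNHG5 and SNHG6, neither of which passed the test, made up 58.9% to 63.0% of the summed TPM in each library. The genes that fell, with the rest of the hosts, shared what remained of the sum.

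Of the 21 other noncoding snoRNA hosts on the list examined, 18 had a row in the table and 12 were tested. Lower in NEAT1siRNA were 5 of these 12, beside 8.98% of all genes, and 0 were higher (0 also at an unadjusted p under 0.05 and with voom on recovered reads). SNHG4, the host of SNORA74A, had 5.01, 5.16 and 4.51 TPM in CsiRNA and 3.29, 2.50 and 2.38 TPM in NEAT1siRNA, with a log2 fold change of -0.67 (adjusted p = 7.30e-05 from limma). SNHG10 had a log2 fold change of -0.53 (adjusted p = 0.000776), and SNHG26 one of -0.59 (adjusted p = 0.00982). SNHG26 rested on 18.0 to 63.9 reads per library and did not pass with quantile normalization or with voom. SNHG3, the host of SNORA73A and SNORA73B, and SNHG17 fell by 0.42 and 0.34 on the log2 scale (adjusted p = 0.0110 and 0.0241). Their median over the 12 was -0.23. Without CsiRNA replicate 1, or without NEAT1siRNA replicate 3, 2 of the 12 were lower, and with voom 4. Of all genes, 383, 425 and 1256 were lower in these fits in turn, against 963 in the reported fit.

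The 7 that did not pass included the most abundant, SNHG29 (listed as LRRC75A-AS1), at 103 ± 4.88 TPM in CsiRNA and 108 ± 0.227 TPM in NEAT1siRNA (SD, n = 3), with a log2 fold change of 0.07 (adjusted p = 0.648). DANCR, the host of SNORA26, was at 34.4 and 32.2 TPM (-0.09 on the log2 scale, adjusted p = 0.570). SNHG9, SNHG25 and SNHG32 were not analysed here.

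**Figure D4:**
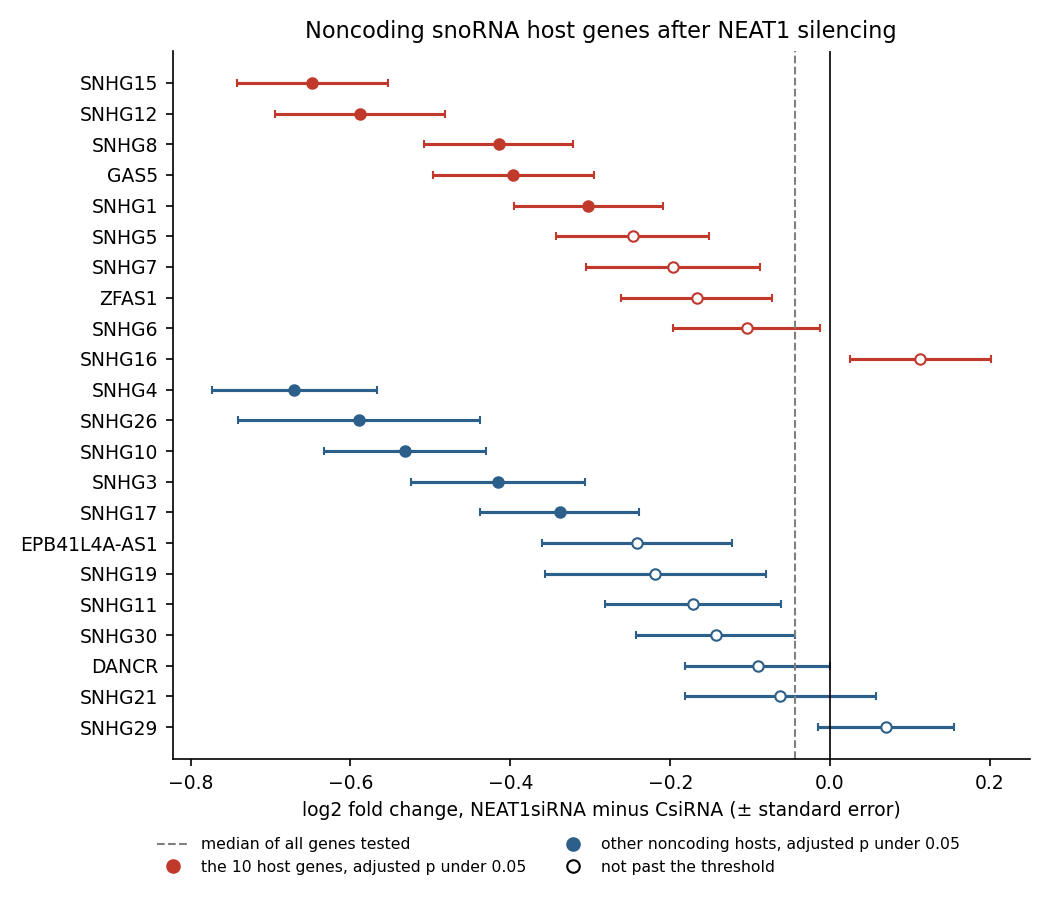
Log2 fold change with its standard error for the 10 host genes (red) and 12 other noncoding snoRNA hosts (blue), filled where the adjusted p was under 0.05; the dashed line is the median of all genes tested. Filled points, 5 in each group, all lie left of -0.29, and SNHG16 and SNHG29 alone lie right of 0.

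SnoRNAs are also carried by protein-coding genes, and these were read by the same test. Of 25 ribosomal protein host genes 24 were tested and 0 passed the threshold in either direction (0 also at an unadjusted p under 0.05 and with voom on recovered reads), with a median log2 fold change of -0.05. Quantile normalization called 2 of them higher, and 1 was lower without CsiRNA replicate 3. The smallest p-values among them belonged to RPS12 (-0.13, adjusted p = 0.382), RPL23 (-0.10, adjusted p = 0.466) and RPL30 (-0.10, adjusted p = 0.494). Ribosomal protein mRNAs share the terminal oligopyrimidine start with many noncoding hosts. A C and 3 pyrimidines stood at the annotated start of 4 of the 8 noncoding hosts shown, beside 5.45% of all promoters. Of those with it, SNHG12 was lower and SNHG5, SNHG7 and ZFAS1 did not pass. Of those without it at that base, SNHG8, SNHG1 and GAS5 were lower and SNHG16 did not pass. A tract that begins a few bases from the annotated start is not counted, and the start used for GAS5 lies outside its GENCODE span. This split therefore does not show which hosts lack the tract, and a part of the tract in the changes was not tested. No test of the difference between the ribosomal protein hosts and the noncoding hosts was made.

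The other protein-coding hosts lay between these. Of 25 tested, 7 were lower (EIF4G1, NOP56, DKC1, TAF1D, WDR43, TBRG4 and TNPO2), beside 8.98% of all genes, and 0 were higher, with a median log2 fold change of -0.15. TAF1D, a subunit of the RNA polymerase I selectivity factor SL1 and host of several snoRNAs, fell by 0.49 on the log2 scale (adjusted p = 0.00444 from limma). TBRG4, a mitochondrial RNA-binding protein of the FASTK family, fell by 0.39 (adjusted p = 0.00471), and NOP56 by 0.38 (adjusted p = 0.00471). The number lower was 2 without CsiRNA replicate 1 and also without NEAT1siRNA replicate 3, and 12 without NEAT1siRNA replicate 2. The number of all genes called lower moved the same way, at 383, 425 and 1590 in turn, against 963 with all libraries. EIF4A1, a translation initiation helicase gene that every growing cell uses, was listed at 0 TPM in all 6 libraries and DDX39B near 0, so these rows may not show the genes' levels.

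**Figure D5:**
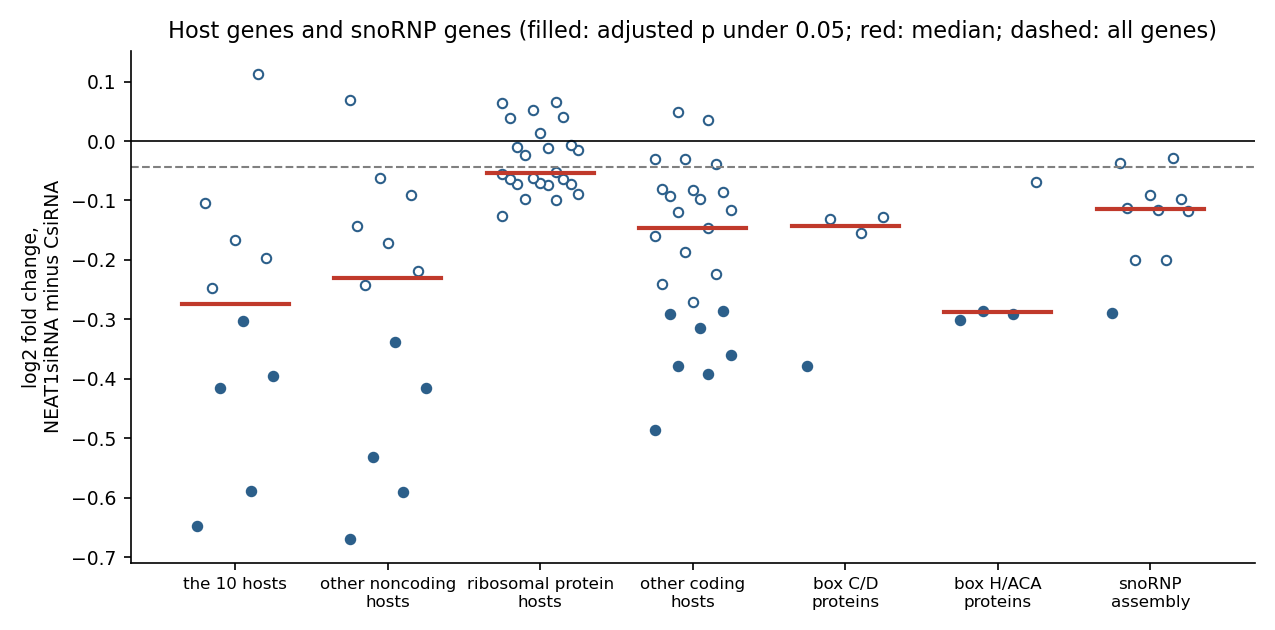
Log2 fold change (NEAT1siRNA minus CsiRNA) of single genes (points, filled where the adjusted p was under 0.05) in 7 lists, with the median of each list in red and that of all genes tested dashed. The 24 ribosomal protein hosts lie between -0.13 and 0.07 with none filled, and the 10 noncoding hosts between -0.65 and 0.11 with 5 filled.

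Proteins that bind the snoRNAs were lower in part. Of the box H/ACA core proteins, the pseudouridine synthase DKC1 (39.1 ± 2.31 and 31.8 ± 2.62 TPM, SD, n = 3 in each group), NOP10 (223 ± 25.9 and 183 ± 9.65 TPM) and GAR1 (43.8 ± 3.10 and 35.6 ± 5.11 TPM) were lower, with log2 fold changes of -0.29, -0.29 and -0.30. Their adjusted p-values from limma were 0.0371, 0.0374 and 0.0465, all close to the threshold, and the groups of GAR1 overlapped. NHP2, the fourth core protein, did not pass (-0.07, adjusted p = 0.664), so that 3 of 4 were lower, beside 8.98% of all genes. None of the 4 passed without CsiRNA replicate 1, without CsiRNA replicate 2 or without NEAT1siRNA replicate 3, and 1 passed without NEAT1siRNA replicate 1. With no filter on TPM 0 passed, and 2 passed with centring on the median or with the trend on GC content and length removed. Of 17 alternative fits, DKC1 passed in 12, NOP10 in 9 and GAR1 in 11.

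Among the box C/D core proteins NOP56, itself a snoRNA host, had 56.2, 51.6 and 55.8 TPM in CsiRNA and 43.7, 40.1 and 41.3 TPM in NEAT1siRNA. Its groups were well apart and it was lower in every one of 17 alternative fits. The methyltransferase fibrillarin (FBL, -0.13), NOP58 (-0.15) and SNU13 (-0.13) did not pass, with adjusted p-values from 0.280 to 0.367. Of 10 tested assembly factors 1 was lower, a share near the 8.98% of all genes. It was the nucleolar chaperone NOLC1 (-0.29, adjusted p = 0.0290 from limma). None was lower without CsiRNA replicate 1, CsiRNA replicate 2, NEAT1siRNA replicate 1 or NEAT1siRNA replicate 3, or with no filter on TPM. The smallest p-values after it were those of RUVBL1 (-0.20, adjusted p = 0.158) and the cap hypermethylase TGS1 (-0.20, adjusted p = 0.162).

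Nonsense-mediated decay factors act on many spliced host RNAs, and 1 of 15 was lower, a share near the 8.98% of all genes. This was UPF1, the central RNA helicase of the pathway, at 10.1 ± 0.796 TPM in CsiRNA and 7.90 ± 1.14 TPM in NEAT1siRNA (log2 fold change -0.32, adjusted p = 0.0369 from limma). The adjusted p was 0.0730 for SMG8 and 0.150 for SMG5. UPF1 was not past the threshold without CsiRNA replicate 1, without NEAT1siRNA replicate 3, with no filter on TPM or with quantile normalization.

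Several host genes share DNA with a gene on the opposite strand, and the sources do not state whether counting used strand, so reads of such pairs may not be separated. ZBTB37, whose annotated start is 800 bases from that of GAS5, was lower as GAS5 was, with 2.36 ± 0.188 TPM in CsiRNA and 1.62 ± 0.245 TPM in NEAT1siRNA (log2 fold change -0.36, adjusted p = 0.0165 from limma). SLC3A2, an amino acid transporter subunit gene that starts 51 bases from SNHG1 in the opposite direction, was at 62.8 ± 5.76 and 60.2 ± 3.12 TPM (-0.06, adjusted p = 0.740), beside a fall of 0.30 for SNHG1.

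ZNFX1 and ZFAS1, whose annotated starts lie 248 bases apart, had log2 fold changes of -0.25 (adjusted p = 0.0837) and -0.17. TRNAU1AP, which overlaps SNHG12 (-0.17, adjusted p = 0.242), and PRSS12, which overlaps SNHG8 (-0.02, adjusted p = 0.932), did not pass. MCMDC2, ST6GALNAC1, ST6GALNAC2 and GAS5-AS1, the partners of SNHG6, SNHG16 and GAS5, had group means under 1 TPM. DIPK1B, which overlaps SNHG7, was not analysed here.

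The mature snoRNAs were not compared between groups here. None of the 36 had a row of TPM values, while 32 appeared in the authors' comparison with a mean normalized count (signal over the 6 libraries pooled) between 0.497 and 109. SNORA16A of SNHG12 had the highest such count, at 109, followed by SNORD80 of GAS5 at 80.5 and SNORA9 of SNHG15 at 59.1. Libraries enriched for polyadenylated RNA retain few mature snoRNAs, and reads over them can also come from unspliced or retained host RNA.

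Across the 6 libraries, SNHG8 was the host whose log2(TPM + 1) was most like the mean of the other 9 (Pearson r = 0.99), followed by SNHG1 (0.94), GAS5 (0.92), SNHG15 (0.90) and SNHG12 (0.87). SNHG5 (0.77), ZFAS1 (0.62), SNHG7 (0.60) and SNHG6 (0.58) were less alike, and SNHG16 ran the other way (-0.50). Outside the lists, the genes whose values were most like the mean of all 10 were LAMC1 (0.999), ATP13A1 (0.999), LOXL2 (0.998), MYO1E (0.997) and UBAP2 (0.997). All of these values describe 6 points that share their libraries and the group difference.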

How the data were processed

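RNA-seq of 3 CsiRNA and 3 NEAT1siRNA libraries was used (TruSeq Stranded mRNA; STAR on GRCh38 per the labels; the counting tool, its strand setting and gene lengths are not given in the sources used here). The authors deposited TPM values per gene and library, and a comparison table whose mean normalized count, a signal pooled over the 6 libraries, was used to recover reads from the deposited TPM; recovered reads lay at most 0.05 from whole in 99.8% of cases for genes with a mean under 5, 98.6% from 5 to 50, 70.5% from 50 to 500 and 12.6% above, so reads of the hosts, all in the upper 2 ranges, are approximate. The authors' fold changes and p-values, also in that table, were not used. Log2(TPM + 1) of genes with a mean of at least 1 TPM was fitted with limma 3.58.1 (lmFit, eBayes with trend, two-sided) in R 4.3.3, with Benjamini-Hochberg adjustment over all 10721 genes and a threshold of 0.05. Standard errors are moderated. An exact permutation test of 3 against 3 cannot go below p = 0.1 and was not used. The procedure was tested on simulated data. Loci came from GENCODE release 44, snoRNAs and start sequences from RefSeq (GRCh38.p14), matched by symbol. Python 3.11.15 was used elsewhere. The members and lists were chosen with earlier results of these data known. Named were the 10 hosts, other noncoding hosts past the threshold, snoRNP core proteins, at most 3 genes of each further list by smallest p, hosted snoRNAs, genes overlapping a host or starting near it, and the 5 genes most like the hosts; EIF4G1, DKC1, WDR43, TNPO2, SNHG29, DANCR, EIF4A1 and DDX39B were named after their values were seen. Some genes that the naming rule covers are not reported here.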

Additional observations from a re-analysis of the deposited data

How the results depend on the processing

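Of the 10 hosts, 5 were changed, all of them lower. With no filter on TPM, where 18531 genes were tested, 1 was changed (SNHG15, lower) and 505 of all genes were. When an absolute log2 fold change of 0.5 or more was asked as well, 2 were changed, both lower, and 314 of all genes. At an adjusted p under 0.01, 719 of all genes were changed. Leaving out 1 library gave 2 (without CsiRNA replicate 1) to 6 hosts changed, all lower, and from 759 to 2083 genes in all (838 without NEAT1siRNA replicate 3). When a host was higher it was SNHG16, giving 1 host called higher with centring on the median, with voom on recovered reads and with a trend on GC content and length removed, alone or with the replicate block. All genes changed numbered 2503 with voom, 3222 with the trend removed and 3241 with the trend removed and the block. NEAT1 was lower in all 17 alternative fits. The deviations of same-numbered libraries correlated by -0.03, 0.25 and -0.11, and those of differently numbered libraries by -0.40 to 0.40. With 3 libraries a group, these values cannot decide whether replicate numbers pair the samples. With the replicate block alone, 6 hosts were lower, SNHG5 being added (adjusted p = 0.0249), and 1640 genes in all were changed. Low genes such as SNHG12 and SNHG7 rest on 103 to 269 and on 140 to 240 reads per library, which limits the change that can be seen there. With 3 libraries a group, a gene that did not pass is not shown to be unchanged.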
